A study of Mus musculus with 6 samples.

Results

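Melanocytes are pigment cells derived from the neural crest, and 8 genes of their pigment program were followed in the leg muscle of mouse fetuses at embryonic day 18.5: Tyr, Tyrp1, Dct, Pmel, Mlana, Oca2, Slc45a2 and Mitf. The members were chosen by gene symbol as core genes of melanin synthesis and the melanosome. Their counts were not the rule of choice, but earlier results of these data were known. They were 8 of the 56262 genes listed in the count table. All 8 had counts in each of the 6 samples and all 8 were among the 22071 genes tested. The samples were 3 WT fetuses and 3 fetuses with knockout (KO) of *SYISL*, the gene of a long noncoding RNA within the Synpo2 locus. WT fetuses came from matings of WT mice and KO fetuses from matings of KO mice, so genotype of the fetus and genotype and litter of the dam cannot be told apart. The number of litters, the sex of the fetuses and the mouse strain are not given in the sources used here, and p-values then measure only the spread between these samples, which may be technical.

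Melanin is made inside the melanosome, an organelle related to the lysosome. Tyrosinase, encoded by Tyr, carries out the rate-limiting oxidation of tyrosine, and its relatives TYRP1 and DCT act on later steps of the eumelanin branch, DCT on dopachrome and TYRP1 on the indole carboxylic acid that follows and on the stability of tyrosinase. PMEL forms the amyloid fibrils on which melanin is laid down, MLANA is a small melanosomal protein needed for PMEL processing, and OCA2 and SLC45A2 are membrane transporters that set the pH of the melanosome. MITF is the basic helix-loop-helix factor that drives the program in melanocytes, and it is also expressed in mast cells, osteoclasts and other cells. It binds E-boxes with the letters CATGTG, and the longer form of this site in pigment gene promoters is known as the M-box.

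The start-site sequences of the 3 melanin enzymes are shown because they carry the E-box letters that MITF is known to bind and because Tyrp1 was called higher in KO whereas Tyr and Dct were not called. They were taken from RefSeq on GRCm38.p6, read 5′ to 3′ on the strand of the gene, and run from 250 bases before the start site to 50 bases after it. RefSeq promoter entries were matched for 5 of the 8 members, with 7 entries in all because Mitf had 3. Pmel, Mlana and Slc45a2 had no entry. Capitals mark CATGTG or its reverse complement CACATG. Tyrp1 lies at chr4:80833963-80834262 on the plus strand, Tyr at chr7:87493463-87493762 on the minus strand and Dct at chr14:118052197-118052496 on the minus strand.
Tyrp1: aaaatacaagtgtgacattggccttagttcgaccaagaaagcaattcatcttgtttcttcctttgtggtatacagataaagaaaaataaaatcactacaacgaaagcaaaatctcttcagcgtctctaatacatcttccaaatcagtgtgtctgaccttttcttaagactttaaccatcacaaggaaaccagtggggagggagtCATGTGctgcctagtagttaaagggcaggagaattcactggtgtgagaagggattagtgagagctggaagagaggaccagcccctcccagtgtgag
Tyr: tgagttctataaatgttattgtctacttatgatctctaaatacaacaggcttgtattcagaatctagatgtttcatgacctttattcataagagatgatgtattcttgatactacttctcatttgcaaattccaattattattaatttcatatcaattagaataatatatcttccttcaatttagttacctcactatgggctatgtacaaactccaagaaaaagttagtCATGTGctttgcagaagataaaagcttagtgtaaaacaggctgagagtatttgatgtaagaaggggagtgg
Dct: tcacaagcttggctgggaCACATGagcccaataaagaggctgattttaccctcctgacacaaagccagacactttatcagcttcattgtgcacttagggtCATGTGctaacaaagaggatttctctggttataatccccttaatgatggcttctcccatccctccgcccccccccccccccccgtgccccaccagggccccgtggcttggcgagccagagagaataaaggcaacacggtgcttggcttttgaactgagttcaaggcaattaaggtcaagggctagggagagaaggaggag

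The longest run around CATGTG that the Tyrp1 and Tyr windows share is AGTCATGTGCT, the 11 letters of the M-box, with the E-box inside it beginning 46 bases before the Tyrp1 start and 21 bases before the Tyr start, where starts are those of RefSeq. The Dct window held 2 E-boxes, at 232 and 150 bases before the start, and both belonged to the 7-letter core TCATGTG, which lies within the M-box and itself contains CATGTG. The Oca2 window held 1 E-box 186 bases before the start, and none of the 3 Mitf windows held one. The search covered both strands. Among all 32851 RefSeq promoter windows of this length, 7 held AGTCATGTGCT (0.0213%), 1239 held TCATGTG (3.77%) and 4650 held CATGTG (14.2%). Of the 7 genes with AGTCATGTGCT, Tyrp1 and Tyr are there by construction, since these letters were taken from their windows. Of the 7, 3 were tested, the third being the complement gene C1qb. These matches describe letters in a window and say nothing of binding in these samples.

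The 6 libraries held 82054811 to 102233181 counts. Values are given as counts and as CPM, counts relative to a library total that was scaled by the TMM method, which corrects for genes that take a large share of a library. At this depth a count of 0 allows up to 0.0293 to 0.0366 CPM (3 counts, unscaled totals, counting error only). A gene was called at an adjusted p under 0.05 by edgeR's quasi-likelihood test, Benjamini-Hochberg adjusted over all 22071 genes, together with a fold change over 1.5. By this rule 1835 genes (8.31% of those tested) were higher in KO and 1852 (8.39%) were lower, and the log2 fold change had a median of -0.0041 over all genes. Muscle fibre markers were high in all 6 samples, with 12 genes summing to 20400 to 22700 CPM in WT against 42600 to 52200 CPM in KO. Of these 12, 10 were called higher and 0 lower, for example skeletal actin Acta1 from 4510 to 12500 CPM. Markers of epidermis were present as well. The 18 keratinocyte markers summed to 19000, 28100 and 21000 CPM in WT 1, 2 and 3 but to 1150, 1270 and 1220 CPM in KO 1, 2 and 3.

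In KO, Tyrp1 rose 2.12-fold, and 5 of the other 7 members had lower mean levels in KO than in WT without passing the test. Of the 8 members, 2 were called higher (Tyrp1 and Oca2) and 0 lower, beside 8.31% and 8.39% of all genes. At an unadjusted p under 0.05 in edgeR's quasi-likelihood test 2 members were lower, and DESeq2 and limma-voom called 0 lower with the fold threshold. At an adjusted p under 0.05 without a fold threshold, edgeR's test gave 3 members higher (Mitf being the third) and 0 lower. Beside these stood 21.9% of all genes higher, 23.1% lower and 45.0% in either direction. With DESeq2, Pmel was lower at an adjusted p of 0.0296, under the fold threshold (log2 difference -0.36). The members had a median log2 fold change of -0.13. Because the tissue was sequenced whole, fewer cells of a type and less RNA per cell cannot be told apart for any of them.

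**Figure D1:**
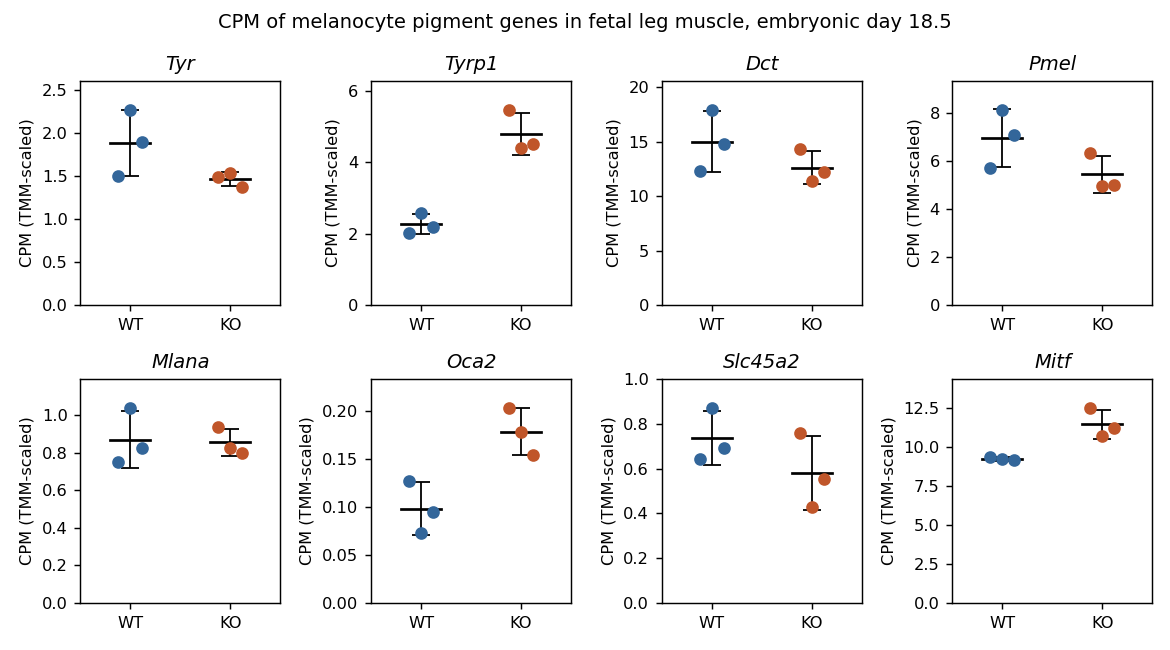
CPM (y axis, TMM-scaled, from 0) of each pigment gene in 3 WT (blue) and 3 KO (orange) samples, 1 panel per gene; points are samples in the order of their replicate numbers, the wide line is the mean and the bar is ± 1 SD. Tyrp1 lies at 2.03 to 2.58 in WT against 4.39 to 5.45 in KO, whereas the WT and KO points of Tyr, Dct, Pmel, Mlana and Slc45a2 overlap.

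Tyrp1 (ENSMUSG00000005994.14, chromosome 4, 80834123 to 80851719, plus strand, mm10) had 192, 213 and 230 counts in WT 1, 2 and 3 and 511, 418 and 438 counts in KO 1, 2 and 3. These were 2.03, 2.58 and 2.18 CPM in WT against 5.45, 4.39 and 4.50 CPM in KO. Every KO sample was above every WT sample, and the lowest KO value exceeded the highest WT value by more than the SD of either group. The means were 2.26 ± 0.284 CPM for WT and 4.78 ± 0.585 CPM for KO (SD, n = 3 each). The log2 fold change was 1.08 with an SE of 0.120 (edgeR's quasi-likelihood test, adjusted p = 7.65e-05), which is 2.12-fold with a 95% confidence interval of 1.76 to 2.55. Leaving out any 1 sample gave 0.98 to 1.18 on the log2 scale, and the call held each time.

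Tyr, which encodes the enzyme that TYRP1 resembles and stabilizes, was not called. The gene (chromosome 7, 87424771 to 87493512, minus strand) had 142, 187 and 200 counts in WT against 140, 146 and 133 counts in KO, or 1.5, 2.26 and 1.89 CPM against 1.49, 1.53 and 1.37 CPM. WT 1 lay within the range of the KO samples, and the other WT samples lay above all 3 KO samples. The log2 difference was -0.36 with an SE of 0.152 and a 95% confidence interval of -0.70 to -0.019 (adjusted p = 0.0816). Dct, for the dopachrome tautomerase (chromosome 14, 118012790 to 118052244, minus strand), had counts of 1167, 1476 and 1565 in WT against 1345, 1091 and 1182 in KO, or 12.3, 17.9 and 14.8 CPM against 14.3, 11.4 and 12.2 CPM. The WT and KO samples overlapped. Its log2 difference was -0.25 (SE 0.131, 95% confidence interval -0.54 to 0.05, adjusted p = 0.16), and the interval leaves out a rise of the size seen for Tyrp1.

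Pmel, for the fibril protein of the melanosome (chromosome 10, 128704195 to 128720238, plus strand), had 5.70, 8.11 and 7.10 CPM in WT against 6.34, 4.97 and 5.02 CPM in KO, from 474 to 749 counts. KO 1 lay inside the WT range and the other KO samples lay below it. The log2 difference was -0.36 (SE 0.138, 95% confidence interval -0.67 to -0.045, adjusted p = 0.0615). The annotated span of Pmel touches both neighbours on the opposite strand, Cdk2 and Dgka, which had 7784 to 9697 and 2934 to 3927 counts. The strand setting of the counting is not stated, so reads in the shared ends cannot be assigned with certainty. Mlana (chromosome 19, 29697824 to 29708634, plus strand) had 0.750, 1.04 and 0.824 CPM in WT against 0.939, 0.829 and 0.802 CPM in KO, and all 3 KO samples lay inside the WT range. Its log2 difference was -0.02 with a 95% confidence interval of -0.38 to 0.34 (adjusted p = 0.932), and its sign turned with the scaling.

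The transporter genes had few counts. Slc45a2 (chromosome 15, 11000721 to 11029233, plus strand) had 61, 72 and 73 counts in WT against 71, 41 and 54 counts in KO, or 0.644, 0.871 and 0.692 CPM against 0.757, 0.430 and 0.555 CPM. KO 1 lay inside the WT range and the other KO samples below it, and the log2 difference was -0.34 (SE 0.222, 95% confidence interval -0.84 to 0.17, adjusted p = 0.254). Oca2 (chromosome 7, 56239760 to 56536518, plus strand) had only 12, 6 and 10 counts in WT against 19, 17 and 15 counts in KO. These were 0.127, 0.0726 and 0.0947 CPM in WT against 0.203, 0.178 and 0.154 CPM in KO, without overlap. Oca2 was called higher at the edge of the threshold, with a log2 fold change of 0.84 (SE 0.307, 95% confidence interval 0.15 to 1.53, adjusted p = 0.0495). The call was lost without WT 2 (adjusted p = 0.149), WT 3 (0.133), KO 1 (0.128), KO 2 (0.107) or KO 3 (0.0722), and with DESeq2 (0.234).

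Mitf, the regulator (chromosome 6, 97807052 to 98021349, plus strand), had 885, 760 and 966 counts in WT against 1171, 1021 and 1092 counts in KO. Its CPM was 9.35, 9.20 and 9.15 in WT against 12.5, 10.7 and 11.2 in KO, so the groups did not overlap. The WT samples lay close together (9.23 ± 0.103 CPM), and the KO samples were spread more widely (11.5 ± 0.916 CPM). The log2 difference of 0.31 (SE 0.0701, 95% confidence interval 0.16 to 0.47, adjusted p = 0.00534) stayed under the fold threshold. Genes whose WT and KO samples do not overlap made up 55.9% of all genes tested, and 3 of the 8 members (Tyrp1, Oca2 and Mitf) were among them.

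**Figure D2:**
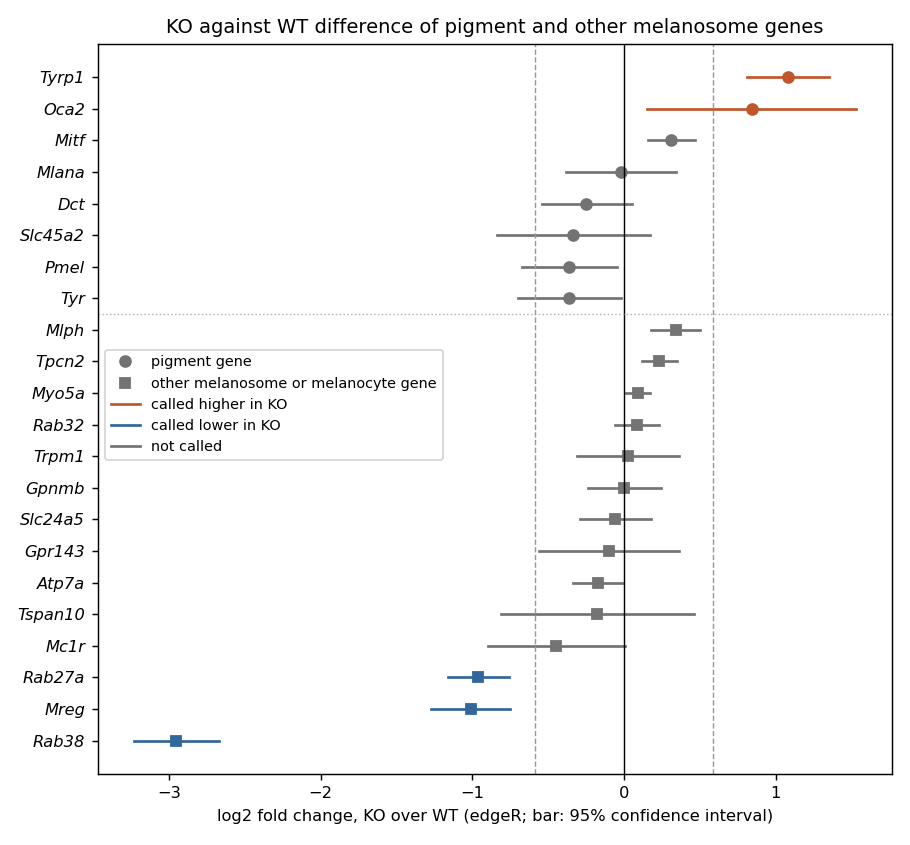
Log2 fold change of KO over WT (x axis) with its 95% confidence interval from edgeR for the 8 pigment genes (circles, above the dotted line) and 14 other melanosome and melanocyte genes (squares); dashed lines mark a fold change of 1.5, and colour marks genes called higher (orange) or lower (blue). The Tyrp1 point at 1.08 stands to the right of all the other genes drawn, and Rab38 at -2.95 stands to the left of them.

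Levels were compared between genes per kb of exon. In WT the order was Pmel (3.04 CPM per kb), Dct (2.55), Mitf (1.49), Mlana (0.825), Tyrp1 (0.800), Tyr (0.265), Slc45a2 (0.247) and Oca2 (0.0248). Among neighbours in this order, the samples of Pmel and Dct, of Mlana and Tyrp1 and of Tyr and Slc45a2 overlapped. In KO Tyrp1 stood at 1.69 CPM per kb, above Mlana (0.810) with no overlap and next to Mitf (1.85), with which it overlapped. The other KO levels were 2.37 for Pmel, 2.15 for Dct, 0.206 for Tyr, 0.195 for Slc45a2 and 0.0450 for Oca2. In KO, Pmel and Dct, Dct and Mitf, and Tyr and Slc45a2 also overlapped. Pmel and Dct had the highest levels per kb in both genotypes.

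Within each library, Tyrp1 was also set against the other pigment genes, which removes any factor that scales all of them alike. There were 0.165, 0.144 and 0.147 Tyrp1 counts per Dct count in WT 1, 2 and 3 and 0.380, 0.383 and 0.371 in KO 1, 2 and 3. The KO ratios lay within a narrow band that was 2.49-fold above the WT ratios. Per Pmel count the values were 0.356, 0.318 and 0.307 in WT against 0.860, 0.882 and 0.898 in KO. The ratio of Tyrp1 rose 2.69-fold to Tyr, 2.70-fold to Pmel, 2.14-fold to Mlana and 2.73-fold to Slc45a2, with no overlap for any of the 5 ratios. A two-sided exact permutation test of each log ratio gave p = 0.1, the smallest that 3 against 3 samples allow, and 0.1 after Benjamini-Hochberg adjustment over the 5. These ratios were chosen after the values of the genes had been seen, and they share the Tyrp1 counts. Oca2 was left out for its few counts and Mitf for its expression in other cells.

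**Figure D3:**
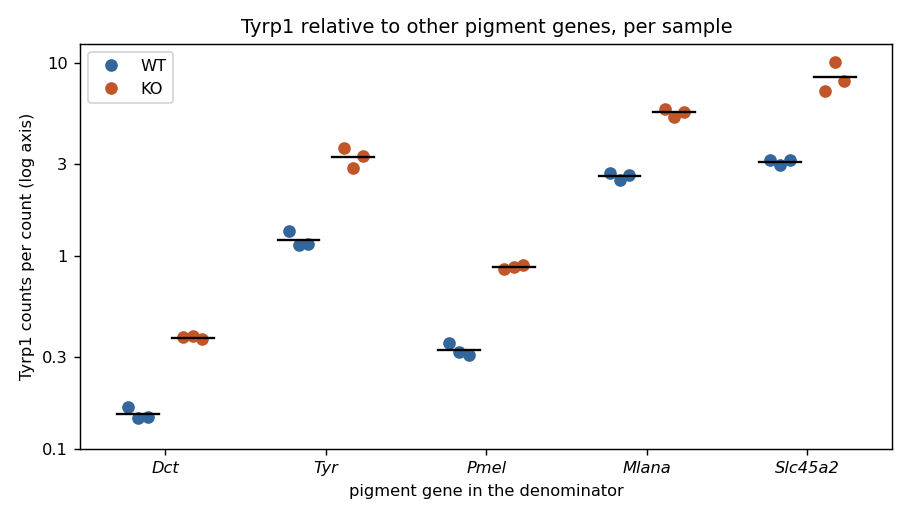
Tyrp1 counts per count of 5 other pigment genes (y axis, log scale) in each of 3 WT (blue) and 3 KO (orange) samples; the line is the group mean. All KO points lie above all WT points for every denominator, for example 0.371 to 0.383 against 0.144 to 0.165 per Dct count.

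The members' summed levels overlapped between genotypes. All 8 genes together made up 32.4, 42 and 36.8 CPM in WT against 42, 34.5 and 35.8 CPM in KO. The means were 37.1 ± 4.79 and 37.4 ± 4.03 CPM (SD, n = 3 each), closer together than the samples of either genotype. Without Mitf they were 27.8 ± 4.86 CPM in WT against 26.0 ± 3.12 CPM in KO. The members varied together within a genotype: WT 2 was the highest WT sample for 6 of the 8 genes and WT 1 the lowest for 6, and KO 1 was the highest KO sample for 7 of the 8. Over all genes tested, these shares were 38.4%, 39.1% and 38.9%. WT 2 was also the highest WT sample for 18 of 18 keratinocyte markers, whereas KO 1 was the highest KO sample for 6 of 18. KO 1 was the highest KO sample for 14 of 17 hair follicle markers, for 9 of 10 mast cell markers and for 8 of 10 macrophage markers. In WT the order of these lists differed from that of the members. WT 2 was the highest WT sample for 7 of 17 hair follicle, 3 of 10 mast cell and 2 of 10 macrophage markers. WT 1 was the lowest for 4, 6 and 7 of them.

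Whereas 0 of 8 pigment genes were called lower in KO, the 18 keratinocyte markers were all called lower (median log2 fold change -3.97, sum 18.7-fold lower), among them the basal keratins Krt5 (-1.96) and Krt14 (-2.59) and the suprabasal Krt10 (-6.20). The 7 members other than Mitf amounted to 1.23 ± 0.0736 CPM per 1000 keratinocyte CPM in WT against 21.5 ± 3.67 in KO, a 17.5-fold difference that lies in the keratinocyte sum, since the sum of the 7 members itself was 0.933-fold. Per 1000 hair follicle CPM these members amounted to 273 ± 41.4 CPM in WT against 393 ± 32.6 in KO, 1.44-fold more, a ratio added after the values had been seen. Hair follicle markers moved both ways, 7 of 17 called higher and 4 lower. Among the inner root sheath keratins, Krt25, Krt27, Krt28, Krt71 and Krt73 summed to 0.454, 0.375 and 0.531 CPM in WT against 8.36, 6.11 and 5.91 CPM in KO. This was 15.0-fold more on a low base, for example 3, 2 and 5 Krt25 counts in WT 1, 2 and 3. Krt72 on the same list went the other way, with 3, 3 and 3 counts in WT against 0, 0 and 1 in KO, and was not tested. Tchh, also on the list, was called lower (log2 fold change -0.70). The summed level of all hair follicle markers was 102 ± 3.70 CPM in WT against 66.7 ± 13 CPM in KO. Krt17 alone held 69.3 CPM of this sum in WT and 34.9 CPM in KO, and it fell by 0.99 on the log2 scale. The fall of the sum and the 1.44-fold ratio to it thus rest largely on this 1 gene. Skin and follicle markers thus moved with genotype, and their part in the differences of the pigment genes was not tested.

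**Figure D4:**
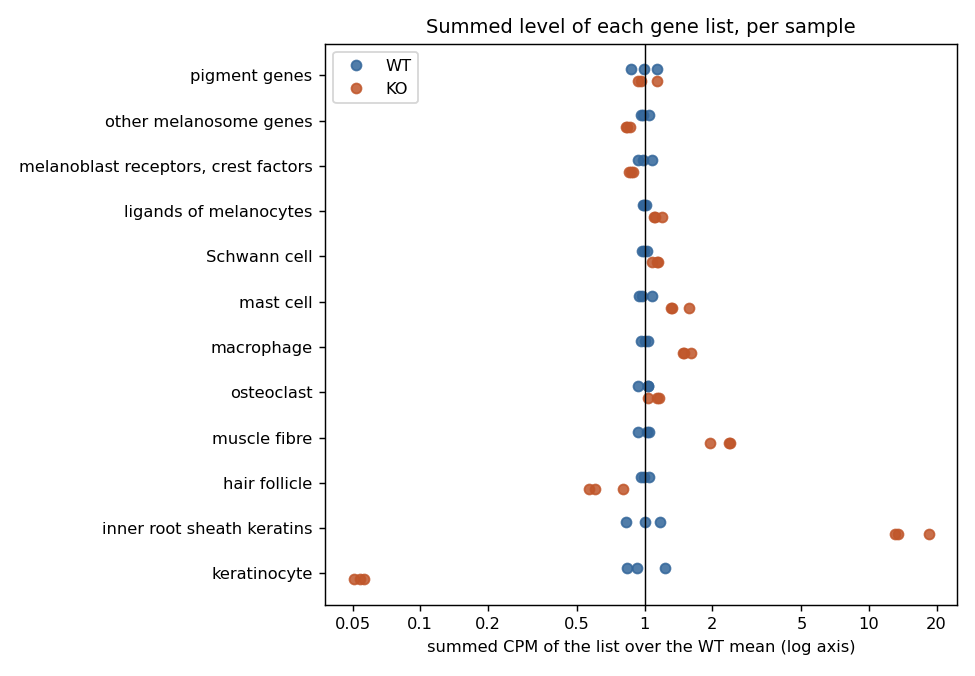
Summed CPM of each gene list in each sample divided by the WT mean of that list (x axis, log scale), for 3 WT (blue) and 3 KO (orange) samples. The pigment genes (top) overlap around 1, and the keratinocyte markers (bottom) of KO lie near 0.05. The inner root sheath keratins drawn (Krt25, Krt27, Krt28, Krt71 and Krt73) lie above 10 in KO.

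Other genes of melanosomes and melanocytes were followed in a list of 14, all tested. Of these, 0 were called higher and 3 lower, with a median log2 fold change of -0.079. DESeq2 and limma-voom also called 0 higher, and at an unadjusted p under 0.05 in edgeR's quasi-likelihood test 3 were higher. Rab38, a small GTPase that carries melanin enzymes to the maturing melanosome, had 21.7, 27.8 and 22.5 CPM in WT against 2.67, 3.18 and 3.48 CPM in KO. It fell by 2.95 on the log2 scale (SE 0.123, adjusted p = 1.58e-07), with every KO sample far below every WT sample. Mreg (melanoregulin, in organelle transport) fell by 1.01 and Rab27a, the GTPase that tethers melanosomes to actin motors, fell by 0.96. All 3 are also expressed outside melanocytes. Mreg went from 15.2 to 7.54 CPM and Rab27a from 13.4 to 6.87 CPM. The partners of Rab27a in that tether were not called: Mlph, the linker, had a log2 difference of 0.34 (adjusted p = 0.004), and Myo5a, the motor, one of 0.093 (adjusted p = 0.0525).

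Of the 14 genes of this list, 11 were not called. Slc24a5, Trpm1, Gpr143 and Mc1r are 4 of these, chosen for naming after their values had been seen, so they do not stand for the list. Slc24a5, an ion exchanger of the melanosome, had 2.94 CPM in WT against 2.82 CPM in KO (log2 difference -0.058, 95% confidence interval -0.29 to 0.18). Trpm1, a channel gene that MITF is known to regulate, had 2.68 and 2.72 CPM (0.026, -0.31 to 0.36). Gpr143, a melanosomal receptor, had 0.295 and 0.276 CPM (-0.10, -0.56 to 0.36), and Mc1r, the receptor for melanocortin, 0.402 and 0.294 CPM (-0.45, -0.90 to 0.0068). The upper ends of these 4 intervals lie below the lower end of the Tyrp1 interval, 0.81. TCATGTG stood in the RefSeq promoter windows of 4 of the 12 genes of this list with an entry (Mc1r, Slc24a5, Trpm1 and Tspan10), and in those of 3 of 5 members. Of all windows 3.77% held it, a share by window and not by gene. It also stood in 2 of 11 keratinocyte, 2 of 7 macrophage, 1 of 8 mast cell and 1 of 4 osteoclast markers with an entry. It stood in 0 of 14 hair follicle and 0 of 11 muscle fibre markers. Its part in the differences was not tested.

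Of 10 receptors and neural crest factors of the melanoblast, the melanocyte precursor, 0 were called higher and 4 lower (median -0.0079), also by DESeq2 and limma-voom. At an unadjusted p under 0.05 in edgeR's quasi-likelihood test 4 were higher. Kit, the receptor melanoblasts need to survive and migrate, had 31.0, 38.9 and 38.6 CPM in WT against 50.6, 44.9 and 46.1 CPM in KO, a log2 difference of 0.38 (adjusted p = 0.00504) under the fold threshold. Sox10, the crest factor upstream of Mitf, was at 13.6 CPM in WT against 16.4 CPM in KO (0.27, adjusted p = 0.00769), and the endothelin receptor gene Ednrb at 47.7 and 62.3 CPM (0.39, adjusted p = 3.13e-05), also under the threshold. Pax3, which acts with Sox10 on Mitf and is also a gene of muscle precursors, had 1.16, 1.77 and 1.3 CPM in WT against 1.01, 0.787 and 0.761 CPM in KO. It fell by 0.72 (adjusted p = 0.012), but the call was lost without WT 2 (log2 difference -0.53) or KO 3 (-0.63). Tfap2a fell by 1.44, Lef1 by 0.90 and the neuregulin receptor gene Erbb3 by 0.70. Tfap2a and Lef1 are also expressed in epidermis and Erbb3 in Schwann cells.

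Of 6 ligand genes for melanocytes, 1 was called higher and 0 lower (median 0.21), also by DESeq2 and limma-voom, and 0 were lower at an unadjusted p under 0.05 in edgeR's quasi-likelihood test. Edn1, for endothelin 1, rose by 0.71, from 4.19 to 6.86 CPM. Kitl, for the KIT ligand, had 117 CPM in WT against 132 CPM in KO (log2 difference 0.18), and Edn3 had 20.9 and 21.3 CPM (0.022). Asip, for the agouti protein that opposes melanocortin signalling, had 4.13 and 5.86 CPM (0.51, adjusted p = 3.33e-04), under the fold threshold. In the MITF family, 1 of 4 genes was called higher (median 0.31): Tfeb, the lysosomal regulator, rose by 0.87, from 10.4 to 19.0 CPM. Of 20 genes of the BLOC, AP-3 and HPS complexes, which sort cargo to melanosomes and lysosomes, 0 were called higher and 1 lower (median -0.0099), also by DESeq2 and limma-voom, and 3 were higher at an unadjusted p under 0.05 in edgeR's quasi-likelihood test. That gene was Bloc1s3, which fell by 0.73.

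Of the 53 tested pigmentation genes on these lists other than the members, 2 were called higher and 8 lower, beside 8.31% and 8.39% of all genes. Their median log2 fold change was -0.0020, close to that of all genes.

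Mitf, Kit and Sox10 are shared with other cells of fetal limb, and markers of these cells moved with genotype. Mast cell markers were called higher for 6 of 10 genes, with sums of 1300, 1340 and 1490 CPM in WT against 2170, 1830 and 1800 CPM in KO. KO 1 was the highest KO sample for Mitf, for Kit, which is itself on the mast cell list, and for this sum. The WT order did not match. Mitf was highest in WT 1 (9.35 CPM) and lowest in WT 3 (9.15 CPM), whereas the mast cell sum was lowest in WT 1 and highest in WT 3. Kit was highest in WT 2 (38.9 CPM) and lowest in WT 1 (31.0 CPM). Sox10 was highest in KO 2 (17.1 CPM, against 16.1 CPM in KO 1). Macrophage markers were called higher for 6 of 10 genes (sum 321 CPM in WT, 490 CPM in KO). Of 13 Schwann cell markers, which summed to 590 CPM for WT and 660 CPM for KO, 2 were called lower, Mal by 1.3 on the log2 scale and Erbb3. Of 10 osteoclast markers 0 were called by edgeR's quasi-likelihood test, DESeq2 or limma-voom (sum 437 CPM in WT, 485 CPM in KO), and at an unadjusted p under 0.05 in edgeR 4 were higher and 2 lower. The part of these cells in the Mitf, Kit and Sox10 differences was not tested.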

How the data were processed

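RNA-seq counts of leg muscle from 3 WT and 3 *SYISL* KO fetuses were analysed. Per the labels and methods, the authors trimmed 150 bp paired-end reads with Trim Galore 0.6.6, mapped them to mm10 with HISAT2 2.2.1 and counted them with featureCounts 2.0.1. The deposited tables hold whole read counts of each gene, not normalized. The annotation and strand setting of the counting are not given in the sources used here. Symbols, positions and exon lengths came from GENCODE M21 (55227 of 56262 gene IDs matched, ignoring version).

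Counts were analysed in R 4.3.3 with edgeR 4.0.16: filterByExpr, TMM, and the quasi-likelihood F-test on genotype alone, with Benjamini-Hochberg adjustment over 22071 genes, after tests on simulated data. The depth was 82054811 to 102233181 counts per sample. Replicate numbers were not used as pairs, since nothing ties them to litters. Alternatives were DESeq2 1.42.0, limma-voom (limma 3.58.1), other scalings, filters and fold thresholds, a replicate block, and leaving out each sample. All 8 members were named, with the called genes of fixed lists (at most 6 a list, by size of change) and Kit, Sox10, Pax3, Kitl, Edn3, Krt5, Krt14 and Acta1. The members and lists were chosen with earlier results of these data known. The list gene, Krt85, had no match. Values of some genes are not reported here, and other experiments of the study were not analysed here.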

Additional observations from a re-analysis of the deposited data

How the results depend on the processing

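Tyrp1 kept its direction and its call under all 16 alternatives run, with log2 fold changes of 0.98 to 1.18. Oca2 lost its call, with log2 fold changes of 0.86 with DESeq2, 0.77 with library size only, 0.84 without a filter on low counts, 0.84 at a fold change over 2 and 0.85 with the replicate block, and it was not tested at 10 counts in every sample. Leaving out 1 sample gave Oca2 0.69 to 1.06. The count of members called higher was then 1 under each of these 6 alternatives, 1 to 2 when 1 sample was left out, and 3 without a fold threshold, which added Mitf (0.31). Mlana turned to 0.049 with upper-quartile factors and ranged from -0.12 to 0.12 when 1 sample was left out. The directions of Tyr, Dct, Pmel, Slc45a2 and Mitf held in all 16. Under the fold threshold, Pmel reached an adjusted p of 0.0296 with DESeq2. In edgeR's quasi-likelihood test it reached 0.0285 with library size only, 0.0171 without a filter, 0.0206 without KO 1 and 0.0142 without WT 1. Tyr reached 0.0371 with library size only and 0.0133 without WT 1, and Dct 0.0282 without WT 1. Of genes not called, Edn3 turned to -0.046 and Trpm1 to -0.042 with library size only, Slc24a5 turned to 0.011 with upper-quartile factors, and leaving out 1 sample gave Trpm1 -0.11 to 0.19 and Slc24a5 -0.14 to 0.0028. Without Mitf the summed means of the members moved to 27.8 CPM in WT and 26.0 CPM in KO.

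Genes called higher and lower over the whole table numbered 774 and 1269 at a fold change over 2 and 4838 and 5098 without a fold threshold. Counts on the lists moved mainly with that threshold. Without it, calls higher became 2 of other melanosome genes, 4 of receptors and crest factors, 3 of ligands, 3 of the MITF family and 2 of trafficking genes, and trafficking genes called lower became 6. At a fold change over 2, receptors and crest factors called lower became 1 and calls of Rab27a, Edn1, Tfeb and Bloc1s3 were lost, which left 2 other melanosome genes called lower. Hair follicle markers called higher became 2 at 10 counts in every sample. At a fold change over 2, calls higher became 2 of mast cell, 1 of macrophage and 6 of muscle fibre markers. Without a fold threshold, Schwann cell markers called higher went from 1 to 7, and osteoclast markers became 2 higher and 2 lower. Upper-quartile factors and library size only shifted the median of all genes to 0.064 and -0.073.

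Replicate numbers did not pair the samples: deviations of samples with the same number correlated at -0.20, -0.13 and 0.047. With the replicate block 1744 genes were called higher and 1777 lower, and Oca2 was the member that lost its call (adjusted p = 0.0725). Counting limits Oca2, with 6 to 19 counts a sample, more than the other members.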

Other observations

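Among the genes whose centred log2 CPM over the 6 samples came closest to Tyrp1 were Sp110, Tnfrsf14, Gm15880, Ccdc170, Dtx3l, Helz2, Agbl1, Masp1 and Tlr5, with root mean square distances of 0.0593 to 0.0992. This search was added after the values of Tyrp1 had been seen. Of the 10 closest genes, 0 were pigment genes. The mean of the 5 members with at least 1 CPM in WT (Tyr, Tyrp1, Dct, Pmel and Mitf) was nearly flat because opposite differences were averaged. These were 1.08 for Tyrp1 and 0.31 for Mitf against -0.36 for Tyr, -0.36 for Pmel and -0.25 for Dct, so the mean describes none of the 5. Within 0.1 of this mean lay 347 genes. Among the closest were AC122818.1, Slc16a6, Gm5900, Mroh7, Slit3, Hoxc8, Rsg1, Stab1 and Plcb2, at 0.0398 to 0.0556.

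Within 1 Mb of Tyrp1, 5 other genes were tested, of which 0 were called higher and 1 lower (Lurap1l, log2 fold change -0.69), with a median of 0.27. Mpdz, another of the 5, had 108 CPM in WT against 130 CPM in KO (log2 difference 0.27). Rab38, which fell by 2.95, starts 0.937 Mb from the end of Tyr on chromosome 7, and was the 1 gene called of 5 tested within 1 Mb of Tyr.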
